A study of Mus musculus with 24 samples.

Results

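The 10 genes described here encode proteins of the neutrophil primary (azurophil) granule and proteins made with them: Elane, Prtn3, Ctsg, Prss57, Mpo, Cst7, Serpinb1a, Nkg7, Ms4a3 and Hk3. They were chosen by name, as the rows with these symbols among the 23991 gene symbols measured in each library, and all 10 were found. RNA was sequenced from 24 libraries of bone marrow cells sorted by flow cytometry from C57BL/6 mice, in 8 groups of 3 libraries. The 2 populations were LSK cells (lineage-negative, Sca1-positive and cKit-positive), among which are stem and multipotent progenitor cells, and GMP cells, the granulocyte-macrophage progenitors. The 4 genotypes were wild type (WT), Flt3-ITD (ITD, an internal tandem duplication in the receptor tyrosine kinase gene Flt3), Ern1(fl/fl)-VavCre (IRE1_KO, the gene of the endoplasmic reticulum stress sensor IRE1 floxed and Cre driven by the Vav promoter, which is active across blood cells) and the cross of the latter 2, Ern1(fl/fl)-VavCre-Flt3-ITD (called IRE1_KO_ITD below). No age of the mice is stated, and no label says that each numbered library came from its own mouse. The p-values therefore measure the spread between these libraries, which may be partly technical. WT, IRE1_KO and IRE1_KO_ITD groups held both female and male libraries (below), so not all libraries of such a group came from the same mouse. For the ITD groups this is not known.

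Primary granules are the first granules a neutrophil makes. Their contents are transcribed mainly at the promyelocyte stage and in the progenitors just before it, and transcription of these genes stops as the cell matures, when secondary and tertiary granule genes take over. Elane (neutrophil elastase), Prtn3 (proteinase 3), Ctsg (cathepsin G) and Prss57 (neutrophil serine protease 4) are serine proteases stored in active form. Mpo (myeloperoxidase) makes hypochlorous acid from hydrogen peroxide. Cst7 (cystatin F) inhibits the cysteine proteases that activate the serine proteases, and Serpinb1a is a cytosolic inhibitor of elastase, proteinase 3 and cathepsin G. Nkg7 is a granule membrane protein best known from cytotoxic lymphocytes, Ms4a3 is a membrane protein of granulocyte-monocyte progenitors, and Hk3 is a hexokinase of myeloid cells, so these genes accompany the stage without all being granule contents.

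In the GENCODE vM21 annotation of GRCm38 (mm10), 3 of the 4 protease genes lay on chromosome 10. Prtn3 (79874476 to 79883174, plus strand) ended 3072 bases before the start of Elane (79886247 to 79888215, plus strand), with no gene in between. Prss57 (79781474 to 79790961, minus strand) lay 83514 bases before Prtn3, with Misp, Palm and Ptbp1 between them. The other members were on other chromosomes: Mpo on chromosome 11 (87793581 to 87804413, plus), Ctsg on 14 (56099881 to 56102574, minus), Cst7 on 2 (150570415 to 150578944, plus), Nkg7 on 7 (43437073 to 43438249, plus) and Ms4a3 on 19 (11629496 to 11640851, minus). Serpinb1a (32842092 to 32851185, minus) and Hk3 (55005985 to 55021385, minus) were both on chromosome 13.

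The upstream sequences of the neighbours Elane and Prtn3 are shown because the 2 genes lie side by side and have the same order of levels among GMP genotypes down to the ITD groups, and those of Ctsg and Cst7 as 2 of the genes whose ITD differences go in opposite directions in the 2 populations. Each is the 250 bases before the RefSeq start of the gene (GRCm38.p6), written 5′ to 3′ on the strand of the gene. Capitals mark the ETS and PU.1 core AGGAAGT, the Myb motif CAACNG and the TATA motif TATAAN. The first of these, AGGAAGT, was chosen after these sequences had been read. GENCODE places the start of Elane inside the window shown, and that of Prtn3 upstream of it.
Elane, chr10:79886062-79886311, plus strand: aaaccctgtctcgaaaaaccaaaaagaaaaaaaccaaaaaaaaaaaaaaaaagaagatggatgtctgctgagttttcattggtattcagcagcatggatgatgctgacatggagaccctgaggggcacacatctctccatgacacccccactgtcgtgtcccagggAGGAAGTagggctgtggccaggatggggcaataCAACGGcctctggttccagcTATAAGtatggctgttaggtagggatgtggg
Prtn3, chr10:79879417-79879666, plus strand: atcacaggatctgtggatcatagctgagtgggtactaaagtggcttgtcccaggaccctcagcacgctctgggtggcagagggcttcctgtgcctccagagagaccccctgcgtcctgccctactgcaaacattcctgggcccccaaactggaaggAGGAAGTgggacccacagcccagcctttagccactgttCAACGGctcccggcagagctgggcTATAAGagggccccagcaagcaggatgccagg
Ctsg, chr14:56102575-56102824, minus strand: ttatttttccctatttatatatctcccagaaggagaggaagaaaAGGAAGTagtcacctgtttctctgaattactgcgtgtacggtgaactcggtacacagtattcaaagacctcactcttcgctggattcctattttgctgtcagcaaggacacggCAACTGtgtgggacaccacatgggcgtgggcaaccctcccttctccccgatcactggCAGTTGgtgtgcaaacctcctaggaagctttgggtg
Cst7, chr2:150570165-150570414, plus strand: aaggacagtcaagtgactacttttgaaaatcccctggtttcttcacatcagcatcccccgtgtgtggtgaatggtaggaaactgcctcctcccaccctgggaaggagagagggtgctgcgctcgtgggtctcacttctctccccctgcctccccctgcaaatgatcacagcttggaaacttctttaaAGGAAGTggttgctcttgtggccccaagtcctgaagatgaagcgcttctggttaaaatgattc

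Elane and Prtn3 held AGGAAGT, then CAACGG and then TATAAG, in the same order and at similar distances. In Elane they began 84, 51 and 31 bases before the start, and in Prtn3 94, 56 and 32 bases before it. RefSeq windows were matched for 8 members (Elane, Prtn3, Mpo, Ctsg, Cst7, Nkg7, Ms4a3 and Hk3). AGGAAGT, on either strand, was in 6 of the 8 (not in Nkg7 or Ms4a3), against 7.69% of all 32851 windows of this length. Because AGGAAGT was chosen after sequences of the members had been read, its count cannot be judged against that share. CAACNG on either strand was in 4 of 8, against 29.3% of windows, and the Runx motif TGTGGT on either strand in 4 of 8, against 14%. TATAAN on the gene's strand was in 3 of 8, against 16%. The C/EBP motif TTGCNNAA, on either strand, was in 0 of 8, against 9.56%, and ACGTG, a core bound by XBP1 and ATF6, was in 1 of 8 (Hk3), against 16.6%. These are matches of letters in short windows and not sites of binding.

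Values are FPKM, fragment counts divided by transcript length and library size, so levels of different genes can be set side by side. They summed to between 510361 and 673177 per library. No read total is stated, but ratios of low values put every library at 0.922 to 1.289 times the depth of WT LSK replicate 1. Only factors under a doubling were tried, and a doubling fits as well, so these values do not show near-equal depth. From 10436 to 10831 genes reached 1 FPKM in a GMP library and 11119 to 11471 in an LSK library. Below, ± is the SD of FPKM or the standard error of a log2 difference, n = 3 libraries per group. Differences are of log2(FPKM + 1) in a limma fit over all genes that reached 1 FPKM in 3 or more libraries, and a gene is called at a Benjamini-Hochberg adjusted p under 0.05. All 10 members passed that filter in each fit.

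The populations matched their labels in WT. Ly6a, which encodes Sca1, was at 197 ± 11.9 FPKM in LSK and 21.8 ± 0.576 in GMP, and Fcgr3, which encodes the Fc receptor CD16 typical of GMP, at 14.6 ± 9.84 and 280 ± 29.2. Ern1 did not fall in the libraries labelled IRE1_KO: it was at 7.585 to 10.4 FPKM in WT GMP, 17.89 to 24.5 in IRE1_KO GMP, 3.726 to 4.74 in WT LSK and 6.641 to 8.707 in IRE1_KO LSK. A value for the whole gene does not show whether an exon is missing, so the deletion and the label could not be checked from it. By Xist and Y-linked genes, the 3 ITD libraries of each population were female, WT had 1 female and 2 male libraries, IRE1_KO 2 and 1, and IRE1_KO_ITD 1 and 2. In LSK, IRE1_KO libraries alone have a 1ng tag in their headers. Mir6236, a short locus, held 0.175% to 0.904% of FPKM in them and 4.41% to 6.24% in LSK libraries of other genotypes.

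**Figure D1:**
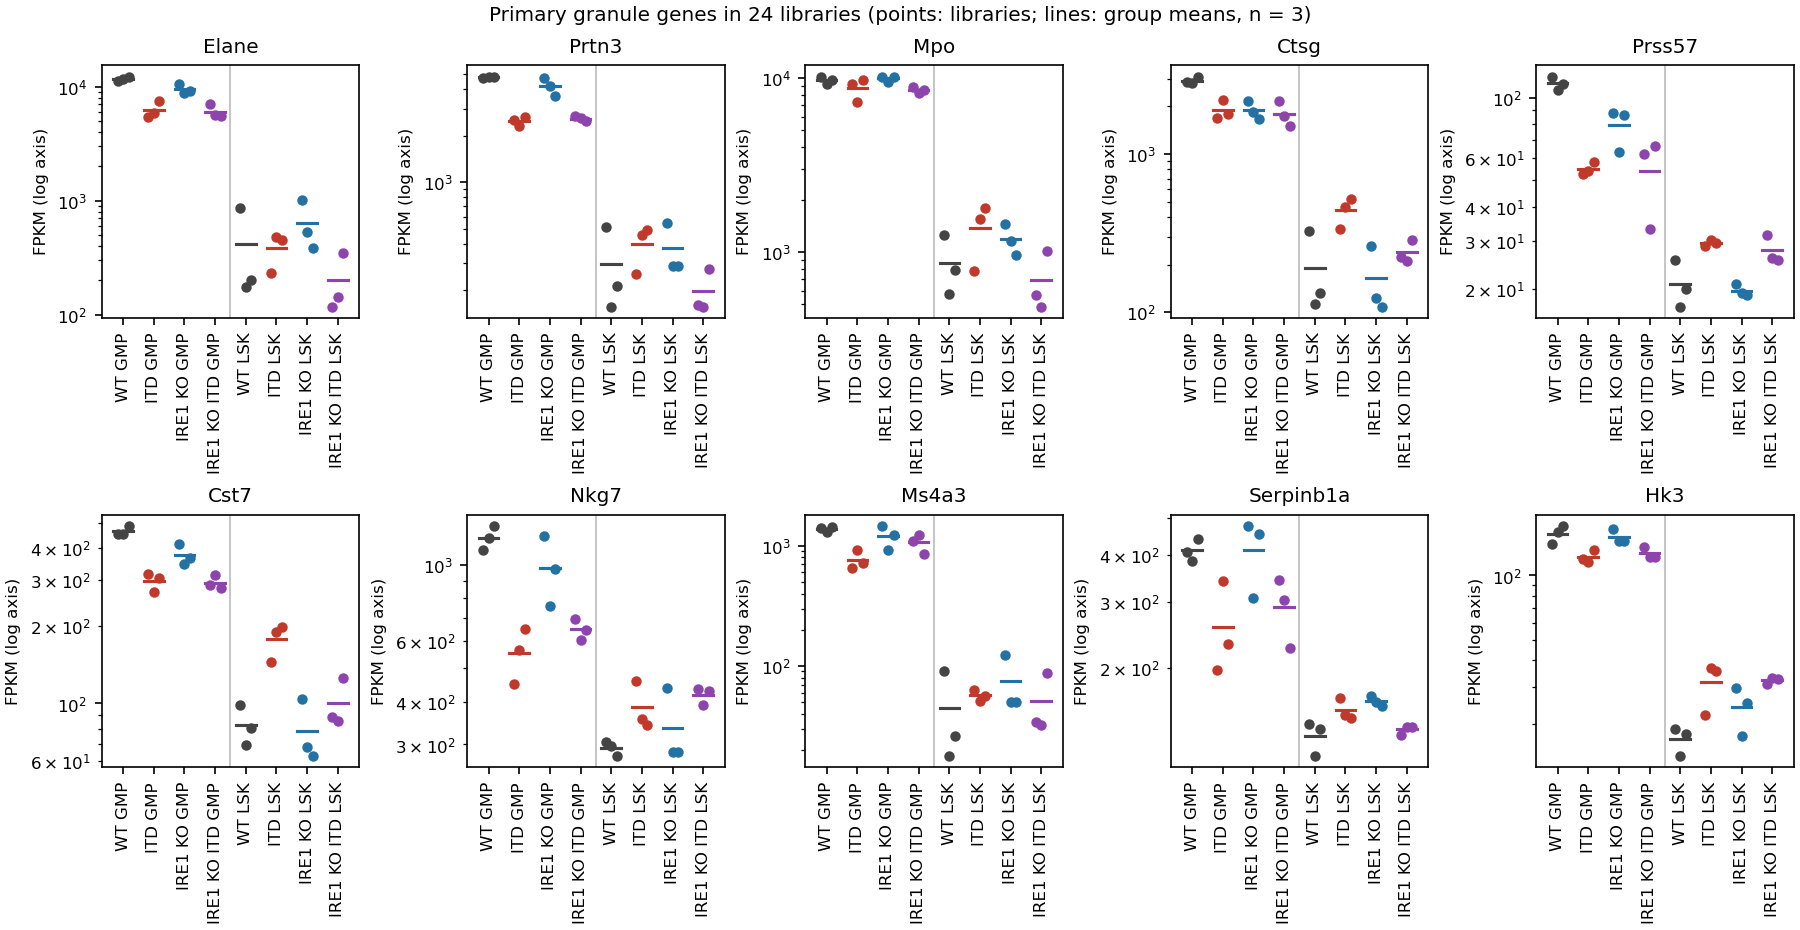
FPKM (log axis) of the 10 genes in each of 24 libraries, by genotype and population; points are libraries and lines are the means of 3. Every gene sits higher in WT GMP than in WT LSK, and 9 of the 10, all but Mpo, have ITD GMP points below all WT GMP points.

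The primary granule genes were among the most abundant transcripts of GMP. In WT GMP, Elane ranked 3 to 4 among all genes of a library at 11688 ± 513 FPKM, Mpo ranked 5 at 9718 ± 460, Prtn3 ranked 7 to 8 at 4782 ± 31.9 and Ctsg ranked 14 to 16 at 2911 ± 147. The membrane proteins Ms4a3 (ranked 38 to 50) and Nkg7 (45 to 71) followed, and Prss57 was the lowest member at 113 ± 6.11 FPKM. The 10 genes together took 2.967% to 5.524% of the FPKM of a GMP library and 0.2933% to 0.754% of an LSK library. All 10 were called higher in WT GMP than in WT LSK, where 19.0% of 12348 genes tested were called higher and 31.3% lower. No WT GMP library lay within the WT LSK range for any member, where 23.7% of genes were higher without overlap. The log2 difference ran from 1.63 ± 0.18 for Serpinb1a to 5.26 ± 0.46 for Ms4a3 and 5.22 ± 0.49 for Elane, with a median of 3.35 over the members and -0.11 over all genes. Of all genes called, 37.7% were higher as scaled by the authors, 51.1% after quantile normalization and 17.3% with totals rescaled without short RNA loci, and all 10 members were called under each. The members separated the populations in each genotype: the GMP and LSK ranges overlapped for 0 members in WT, IRE1_KO and IRE1_KO_ITD, and in ITD for Nkg7 alone. Of all genes, 15.6% in ITD, 14.2% in IRE1_KO and 18.5% in IRE1_KO_ITD were higher in GMP without overlap.

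The transcripts that LSK cells held of these genes were uneven between libraries, to a degree that differed between members. Elane was at 866.8, 174.6 and 200.5 FPKM in the WT LSK libraries, and Ms4a3 at 90.46, 17.85 and 26.23. The highest WT LSK library stood at 5.07 times the lowest for Ms4a3, the widest spread, and at 1.1 times for Nkg7, the narrowest. WT LSK replicate 1 was the highest of its group for 10 of 10 members, and IRE1_KO LSK replicate 1 for 10 of 10 of its group. The same 2 libraries had the highest summed FPKM of 23 late neutrophil genes in their groups, 10437 against 5170 and 5229 in WT and 12301 against 5754 and 4985 in IRE1_KO. In these bulk samples, fewer cells of a type and less RNA per cell cannot be told apart, and the part of such cells in the results was not tested.

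The first genotype comparison was ITD against WT in GMP. The ITD allele went with lower levels of the proteases, the inhibitor Cst7, both membrane proteins and Hk3, while no difference of Mpo was called. In all, 8 of 10 members were called lower and 0 higher, where 3.32% of 11249 genes tested were called lower and 7.37% higher. The median log2 difference was -0.79 over the members and 0.07 over all genes tested. Of all 1203 genes called, 68.9% were higher in ITD as scaled by the authors and 49.7% after quantile normalization.

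Elane was at 11189, 11660 and 12215 FPKM in WT GMP and at 5418, 5912 and 7471 in ITD GMP. The ITD libraries all lay below the WT libraries, at 53.6% of the WT mean, and the log2 difference was -0.91 ± 0.15 (limma adjusted p = 0.0048). Its neighbour Prtn3 was at 4752, 4816 and 4778 FPKM in WT and 2533, 2322 and 2655 in ITD. The WT libraries were almost level and the ITD libraries again lay apart from them, with a difference of -0.94 ± 0.11 (limma adjusted p = 0.000835). Ctsg was at 2847, 2806 and 3080 FPKM in WT and 1700, 2202 and 1787 in ITD. The groups did not overlap, and the difference was -0.63 ± 0.15 (limma adjusted p = 0.0274). Prss57, the least abundant of the proteases, was at 119.1, 106.9 and 112.1 FPKM in WT and 52.69, 54 and 58.06 in ITD, a difference of -1.02 ± 0.22 (limma adjusted p = 0.0184). After quantile normalization the calls of Elane (-0.36, adjusted p = 0.451) and Prtn3 (-0.54, adjusted p = 0.166) were lost in the limma fit. That scaling sets a value by the rank of the gene in its library. Elane ranked 3 to 4 in WT GMP and 3 to 7 in ITD GMP, and Prtn3 7 to 8 and 7 to 22.

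Mpo gave no call. It was at 10157, 9240 and 9758 FPKM in WT GMP and 9217, 7265 and 9692 in ITD GMP. The ranges overlapped, and the log2 difference was -0.17 ± 0.12, with a 95% interval from -0.43 to 0.10 (limma adjusted p = 0.371). After quantile normalization, which sets values by rank, the difference was 0.51 (limma adjusted p = 0.350). Mpo ranked 5 in WT GMP and 2 to 5 in ITD GMP. The level of each member relative to Mpo within a library does not depend on a scaling by 1 factor per library. Elane over Mpo was 1.1, 1.26 and 1.25 in the WT GMP libraries and 0.588, 0.814 and 0.771 in the ITD GMP libraries. The ratio was lower in all 3 ITD libraries, and an exact permutation test gave p = 0.1, the smallest that 3 against 3 allows (two-sided; 0.15 adjusted over the 9 ratios tested). Over all 4 genotypes, the 6 GMP libraries without the ITD allele had Elane over Mpo at 0.902 to 1.26 and the 6 with it at 0.588 to 0.814. Prtn3 over Mpo was at 0.358 to 0.521 without the allele and 0.274 to 0.32 with it, and Nkg7 over Mpo at 0.0796 to 0.133 and 0.0487 to 0.0786. These 3 of the 9 ratios did not overlap between the libraries without and with the ITD allele, where 1.07% of the ratios of 11248 genes to Mpo were lower with the allele without overlap.

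**Figure D2:**
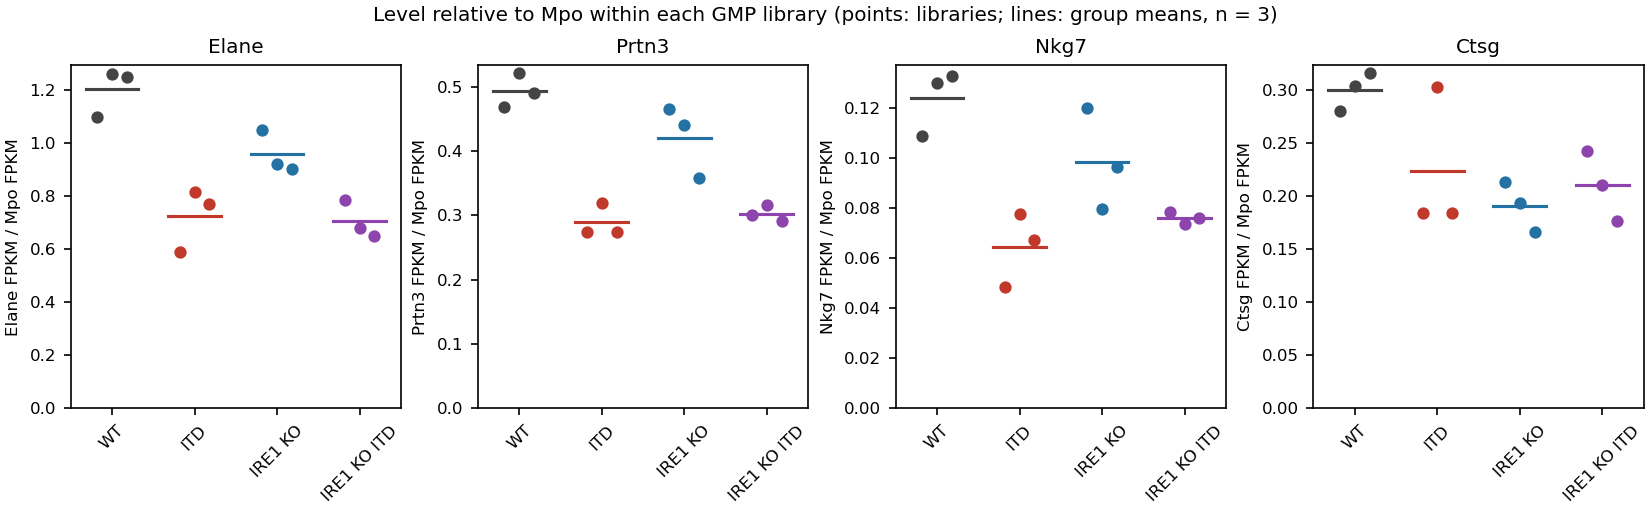
FPKM of Elane, Prtn3, Nkg7 and Ctsg divided by the FPKM of Mpo in the same GMP library, by genotype; points are libraries and lines are the means of 3. Elane, Prtn3 and Nkg7 lie lower in both ITD genotypes than in both genotypes without the allele, while Ctsg overlaps. For Ctsg, 1 ITD library at 0.303 lies within the WT range of 0.28 to 0.316. IRE1_KO, at 0.166 to 0.213, also overlaps IRE1_KO_ITD, at 0.177 to 0.243.

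Of the inhibitors, Cst7 was at 452.4, 451 and 485.3 FPKM in WT GMP and 316.2, 269 and 305.8 in ITD GMP, without overlap (-0.64 ± 0.09, limma adjusted p = 0.00257). Serpinb1a was at 405.3, 385 and 441.2 FPKM in WT and 198.4, 339.8 and 232.2 in ITD. The ITD libraries were all lower but spread widely, and the difference of -0.71 ± 0.23 did not pass (limma adjusted p = 0.0690); without ITD GMP replicate 2 it was -0.93 (adjusted p = 0.0240). Its near copies Serpinb1b (1.54 to 6.69 FPKM over 24 libraries) and Serpinb1c (2.11 to 8.76) were far lower, and how the authors' counting divided reads among the 3 is uncertain.

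Nkg7 had the largest difference of the members in this comparison. It was at 1109, 1200 and 1301 FPKM in WT GMP and 448.8, 565.7 and 653.1 in ITD GMP, 46.2% of the WT mean. The groups did not overlap, and the difference was -1.13 ± 0.18 (limma adjusted p = 0.00398). Ms4a3 was at 1416, 1299 and 1437 FPKM in WT and 658.1, 926.8 and 713.7 in ITD (-0.87 ± 0.19, limma adjusted p = 0.0192). Hk3 had the smallest difference called, from 140.8, 159.8 and 170.8 FPKM in WT to 119.6, 115.7 and 131.2 in ITD (-0.36 ± 0.10, limma adjusted p = 0.0409). The ubiquitous hexokinase Hk1 was at 21.5 ± 2.28 FPKM in WT GMP and 22.2 ± 1.82 in ITD GMP, a level well under that of Hk3 in both. Over all members, 9 of 10 had ITD GMP ranges wholly below WT, where 12.5% of the genes tested did.

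The count of 8 fell to 4 (Elane, Prtn3, Cst7 and Nkg7) with sex as a covariate, and to 4 without WT GMP replicate 2 or without WT GMP replicate 3. It was 5 without ITD GMP replicate 1 or 3 and without the filter on low values. Cst7 and Nkg7 were called in each of the 14 alternatives run, whereas Hk3 lost its call in 11 of them and Ctsg in 8.

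Genes of other cells moved in the same comparison. Of 17 monocyte and dendritic cell genes tested, 8 were called higher and 0 lower in ITD GMP, among them Irf8 (1.30 ± 0.13, limma adjusted p = 0.000399), Batf3 (2.59 ± 0.33, limma adjusted p = 0.00133) and H2-Aa (4.42 ± 0.57, limma adjusted p = 0.0014). Their summed FPKM was 4391 to 4583 in WT GMP and 4037 to 7328 in ITD GMP. Of 13 erythroid genes 9 were called lower, of 10 B cell genes 7, and of 11 basophil, mast cell and eosinophil genes 3. The summed FPKM of the erythroid genes was 123 to 591 in WT GMP and 37.6 to 140 in ITD GMP, and that of the B cell genes 97.9 to 351 and 51.7 to 57.6. The mast cell proteases Cma1 and Tpsb2 were listed at 0 in all ITD GMP libraries. Fcgr3 was itself lower in ITD GMP (-1.05 ± 0.22, limma adjusted p = 0.0168). The part of these cell types in the lower levels of the granule genes was not tested.

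The later granule genes varied widely between libraries. Of 23 late neutrophil genes, such as Ltf and Camp of the secondary granules, 1 was called lower (Stfa2, -1.32 ± 0.29, limma adjusted p = 0.0203) and 0 higher, with a median of -0.85. Their summed FPKM was 66232, 49010 and 45302 in WT GMP and 2894, 98749 and 40260 in ITD GMP, so the ITD libraries lay on both sides of WT. In the same order of ITD GMP libraries, Elane was at 5418, 5912 and 7471 FPKM. Ctsg, Ms4a3 and Serpinb1a were highest of the group in replicate 2, the ITD library with the highest of these sums. Cst7 was highest in replicate 1, and 6 members, Elane among them, in replicate 3. The part of late neutrophil cells in the lower levels of the primary granule genes was not tested.

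Runx1 was the 1 of 9 granulocyte transcription factors called (higher, 1.01 ± 0.20, limma adjusted p = 0.0137). Cebpe, a factor of late granule genes, was at 73.3 ± 14.4 FPKM in WT GMP and 39.8 ± 25 in ITD GMP (-1.13 ± 0.52, limma adjusted p = 0.175). Spi1, which encodes PU.1, was at 151 ± 24.9 and 196 ± 15.5 FPKM (log2 difference 0.38, interval 0.07 to 0.68, not called), and Myb at 127 ± 2.53 and 110 ± 5.43 (limma adjusted p = 0.188). Of 23 genes of granule cargo, sorting and protease activation, 2 were called higher, among them the lysosomal enzyme Man2b1 (0.42 ± 0.10, limma adjusted p = 0.022), and 3 lower. The 3 were the lysosomal protease Ctsd (-0.47 ± 0.11, limma adjusted p = 0.0283) and, named after their values were seen, Cd63, a granule membrane tetraspanin (-1.50 ± 0.41, limma adjusted p = 0.0431), and Srgn. Srgn encodes serglycin, the proteoglycan that packs proteases into granules, and was at 1884 ± 162 FPKM in WT GMP and 973 ± 335 in ITD GMP (limma adjusted p = 0.0387). Ctsc, the protease that activates elastase, proteinase 3 and cathepsin G, was at 64.5 ± 6.8 and 55.9 ± 11.4 FPKM (limma adjusted p = 0.486).

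The chromosome 10 neighbours of the protease genes gave different values. Of 9 tested, 1 was called in ITD against WT in GMP, Med16, which was higher (0.55 ± 0.15, limma adjusted p = 0.0456). Ptbp1, between Prss57 and Prtn3, was at 152 ± 14.7 FPKM in WT GMP and 162 ± 41 in ITD GMP. Palm was at 34.2 ± 10.9 and 47.6 ± 15.3 FPKM. Cfd, the gene after Elane (complement factor D, also a serine protease), was at 0.732 ± 0.282 and 0.565 ± 0.145 FPKM. Of the genes that overlap a member on the other strand, Fstl3 (with Prss57) reached at most 1.65 FPKM and Unc5a (with Hk3) 2.53 FPKM in any library. Plppr3 overlaps Prtn3 and Gm11505 overlaps Mpo in the same way, and whether counting used the strand is not given in the sources used here.

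**Figure D3:**
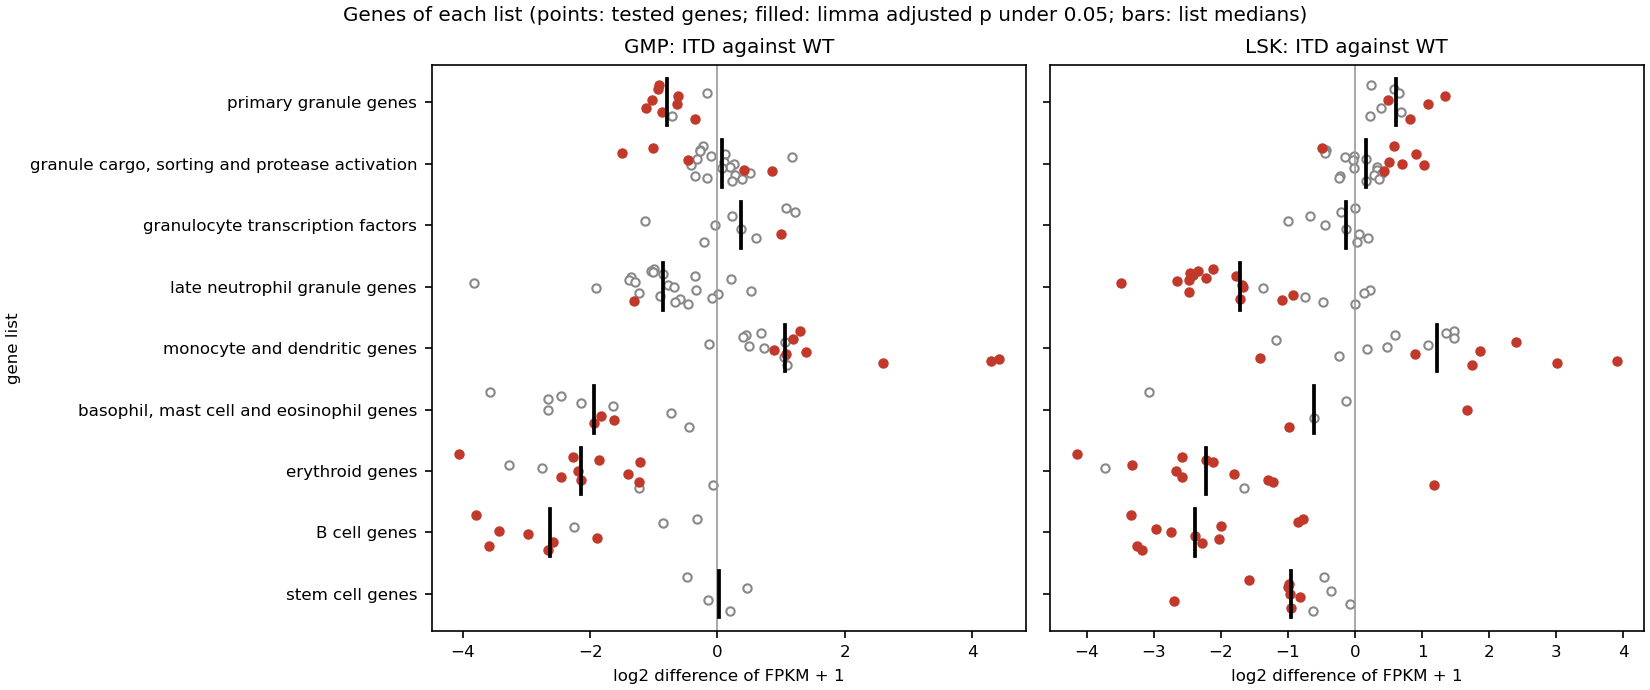
Log2 difference of ITD against WT for the tested genes of 9 lists, in GMP (left) and LSK (right); filled points passed the limma test and black bars are list medians. The primary granule genes have a median of -0.79 in GMP and 0.61 in LSK, while the erythroid and B cell genes lie on the low side in both.

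The same comparison in LSK cells gave differences in the other direction. Called higher in ITD LSK were 4 of 10 members (Cst7, Hk3, Prss57 and Ctsg) and 0 lower, where 14.9% of 11955 genes tested were called higher and 7.27% lower. The median was 0.61 over the members and 0.08 over all genes. Among all genes called, 67.2% were higher as scaled by the authors and 45.8% with median-ratio size factors, under which 2 members were called, Cst7 and Hk3.

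Cst7 was at 98.99, 69 and 80.19 FPKM in WT LSK and 144.4, 189.2 and 196.8 in ITD LSK. The groups lay well apart, at 214% of the WT mean, with a difference of 1.09 ± 0.22 (limma adjusted p = 0.00719). Ctsg was at 328.4, 113.3 and 133.3 FPKM in WT and 336, 465.8 and 524.1 in ITD. The lowest ITD library was just above the highest WT library, and the difference was 1.34 ± 0.41 (limma adjusted p = 0.0375). Prss57 was at 25.6, 17.27 and 19.96 FPKM in WT and 28.75, 30.26 and 29.43 in ITD (0.49 ± 0.13, limma adjusted p = 0.0229). Hk3 was at 18.97, 14.19 and 17.93 FPKM in WT and 22.21, 36.61 and 35.54 in ITD (0.82 ± 0.21, limma adjusted p = 0.0203). For these 4 genes no ITD library fell within the WT range. In all, 6 of 10 members, Nkg7 and Serpinb1a being the others, had ITD LSK ranges wholly above WT, where 25.8% of the genes tested did.

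The 3 most abundant members of GMP did not pass in LSK. Mpo was at 1243, 573.3 and 783.4 FPKM in WT LSK and 778.1, 1549 and 1788 in ITD LSK. These ranges overlapped, and the difference of 0.65 had a 95% interval from -0.18 to 1.48 (limma adjusted p = 0.241). Elane was at 232.1, 479.9 and 450.2 FPKM in ITD LSK, within the WT range of 174.6 to 866.8 (0.24, interval -1.14 to 1.62, limma adjusted p = 0.809). Prtn3 also overlapped, at 254.7, 454.9 and 493.7 FPKM in ITD against 510.8, 156.7 and 214.5 in WT (0.58, interval -0.39 to 1.55, limma adjusted p = 0.374).

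The 4 calls fell to 1 (Cst7) with sex as a covariate, to 1 without WT LSK replicate 2, ITD LSK replicate 2 or ITD LSK replicate 3, and to 2 without WT LSK replicate 3 and when only the compared libraries were fitted. Cst7 was called in each of the 14 alternatives run, whereas Ctsg lost its call in 10 and Prss57 in 8.

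In ITD LSK the late neutrophil genes went lower: 15 of 21 were called lower and 0 higher, with a median of -1.71, among them Mmp9 (-2.22 ± 0.31, limma adjusted p = 0.0013), Retnlg (-3.49 ± 0.53, limma adjusted p = 0.002) and Ltf (-2.12 ± 0.33, limma adjusted p = 0.00207). Their summed FPKM was 5170 to 10437 in WT LSK and 589 to 2590 in ITD LSK. All 11 B cell genes tested were lower too, as were 7 of 11 stem cell genes. Of 13 erythroid genes 10 were called lower and 1 higher (Tfrc, the transferrin receptor, named after its value was seen; 1.18 ± 0.19, limma adjusted p = 0.00275). Of 16 monocyte and dendritic cell genes, 6 were called higher and 1 lower (Flt3, -1.41 ± 0.09, limma adjusted p = 1.29e-05), and of 5 basophil, mast cell and eosinophil genes 1 was called higher (Mcpt8, 1.66 ± 0.21, limma adjusted p = 0.000831) and 1 lower (Gata2, -0.98 ± 0.17, limma adjusted p = 0.00352). Of 23 genes of granule cargo, sorting and protease activation, 6 were called higher and 1 lower. The lysosomal enzymes Gusb (0.70 ± 0.11, limma adjusted p = 0.00201) and Arsb (1.02 ± 0.17, limma adjusted p = 0.00315) and the vesicle GTPase Rab27a (0.91 ± 0.22, limma adjusted p = 0.0169) were among those higher. Of 9 granulocyte transcription factors, limma called 0. The part of these cells in the members' differences was not tested.

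The difference between the populations was tested itself. The ITD effect in GMP was called lower than that in LSK for 7 of 10 members, where 7.10% of 12348 genes were so called. In the other direction 0 members were called, where 6.45% of genes were. Of all genes called, 47.6% were in that other direction as scaled by the authors and 84.5% with totals rescaled without short RNA loci, under which 6 members were called. Ctsg had the largest difference of effects, -1.97 ± 0.46 (limma adjusted p = 0.0113), followed by Cst7 at -1.73 ± 0.25 (limma adjusted p = 0.000706). Prss57 (-1.51 ± 0.27, limma adjusted p = 0.00243), Nkg7 (-1.51 ± 0.25, limma adjusted p = 0.00177) and Prtn3 (-1.51 ± 0.48, limma adjusted p = 0.0442) were close together, and Hk3 (-1.18 ± 0.24, limma adjusted p = 0.00533) and Serpinb1a (-0.94 ± 0.25, limma adjusted p = 0.0217) were smaller. Elane (-1.15 ± 0.69, limma adjusted p = 0.267), Mpo (-0.81 ± 0.42, limma adjusted p = 0.196) and Ms4a3 (-1.55 ± 0.65, limma adjusted p = 0.112) did not pass. Without WT LSK replicate 1, the library highest for all members in its group, Elane (-1.89, adjusted p = 0.0297) and Ms4a3 (-2.22, adjusted p = 0.0120) passed in the limma fit. Prtn3 lost its call in 14 of the 19 alternatives.

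As ratios of group means, the distance between GMP and LSK was shorter in ITD than in WT for all 10 members. Cst7 was 5.6 times higher in GMP than in LSK in WT and 1.68 times in ITD, Nkg7 4.11 and 1.44 times, Ctsg 15.2 and 4.29 times, and Prss57 5.38 and 1.86 times. The widest distances were those of Ms4a3, 30.9 times in WT and 13.4 times in ITD, and Elane, 28.2 and 16.2 times. From IRE1_KO to IRE1_KO_ITD the ratio was larger for 4 members, Elane (14.9 and 29.9 times), Ms4a3 (16.1 and 20.8 times), Mpo (8.38 and 12.4 times) and Prtn3 (11.1 and 13.1 times), and smaller for the others. These ratios were not tested, and those of IRE1_KO rest on the LSK libraries with the header tag.

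The Ern1(fl/fl)-VavCre genotype was compared next. In IRE1_KO against WT in GMP, limma called 0 of 10 members, where 0.533% of genes were called in either direction, and 3 members (Ctsg, Prss57 and Cst7) had an unadjusted p under 0.05, as did 1351 of all 11249 genes. The median was -0.26 over the members and 0.08 over all genes. Ctsg was at 2163, 1851 and 1673 FPKM in IRE1_KO GMP, below all WT libraries and at 65.1% of the WT mean, the same percentage as in ITD GMP, which was set against the same WT libraries. Its difference was -0.63 ± 0.15, with a 95% interval from -0.96 to -0.29 (limma adjusted p = 0.157). Elane was at 10651, 8786 and 9108 FPKM, also below WT (-0.30 ± 0.15, interval -0.63 to 0.02, limma adjusted p = 0.448). In all, 5 of 10 members (Elane, Prtn3, Ctsg, Prss57 and Cst7) had IRE1_KO GMP ranges wholly below WT, where 7.81% of the genes tested did. Mpo was at 10146, 9528 and 10100 FPKM, overlapping the WT range (0.03 ± 0.12, interval -0.23 to 0.30, limma adjusted p = 0.935). IRE1_KO GMP replicate 1 was the highest of its group for 10 of 10 members.

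**Figure D4:**
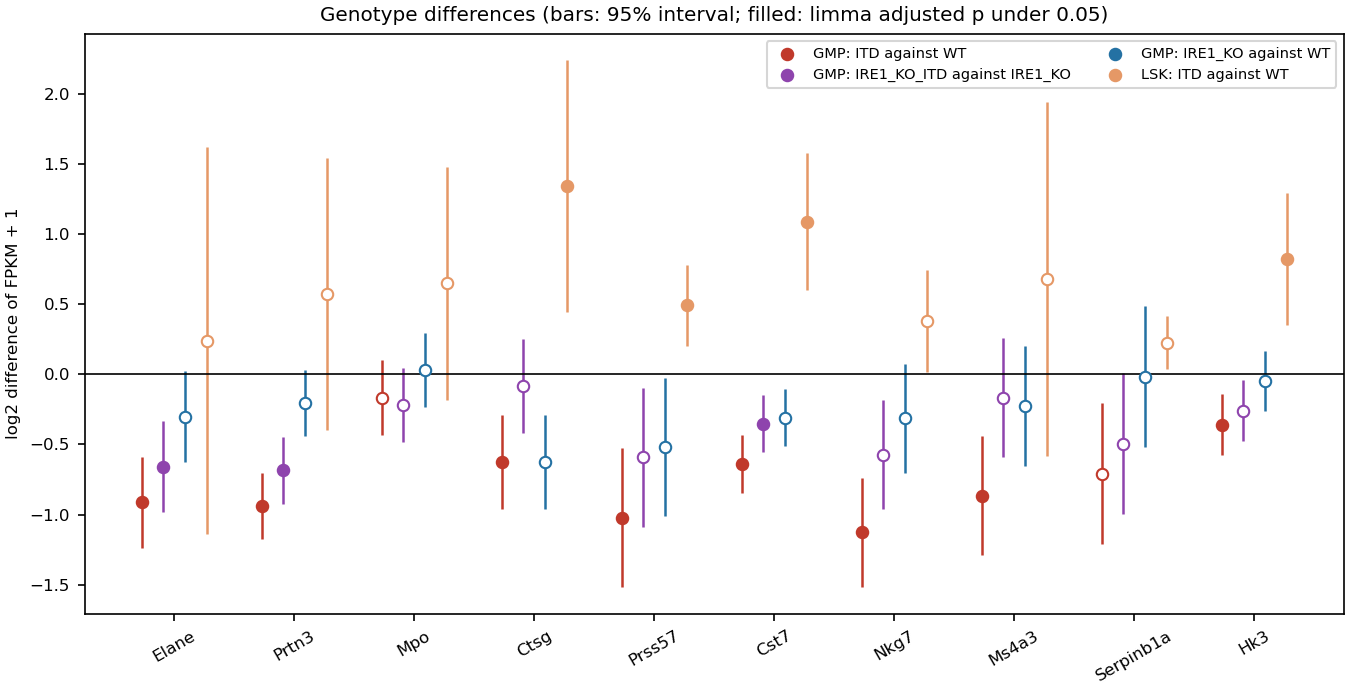
Log2 difference of FPKM + 1 for each member in 4 comparisons, with 95% intervals; filled points passed the limma test at an adjusted p under 0.05. The ITD against WT differences lie below 0 in GMP and above 0 in LSK for all 10 members, except that Mpo in GMP turns to 0.51 after quantile normalization and Elane in LSK to -0.31 with sex as a covariate, and the intervals in LSK are widest for Elane and Ms4a3.

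On the ITD background, IRE1_KO_ITD against ITD in GMP, limma called 0 of 10 members, where 1.83% of genes were called, and 1 member (Ms4a3) had an unadjusted p under 0.05, as did 18.1% of all genes. Elane was at 6994, 5600 and 5530 FPKM in IRE1_KO_ITD GMP, overlapping the ITD range (-0.05 ± 0.15, interval -0.37 to 0.28, limma adjusted p = 0.888). Prtn3 was at 2668, 2602 and 2476 FPKM (0.05 ± 0.11, interval -0.19 to 0.28, limma adjusted p = 0.842). Ms4a3 was at 1096, 1240 and 858.1 FPKM, mostly above the ITD libraries (0.47 ± 0.19, interval 0.05 to 0.90, limma adjusted p = 0.227). The groups overlapped for all 10 members, where 19.7% of genes did not. Of 17 monocyte and dendritic cell genes, 4 were called lower and 0 higher, with a median of -0.48. Of 23 late neutrophil genes 0 were called, with a median of -1.49. Their summed FPKM was 1893 to 16291 in IRE1_KO_ITD GMP and 2894 to 98749 in ITD GMP. Whether these cells had a part in the members' values was not tested. Among all genes called, 50% were higher as scaled by the authors and 33.2% with median-ratio size factors. The test of whether the effect of the Ern1 genotype differed between ITD and WT in GMP called 0 of 10 members and 0% of all genes in limma, and 3 members (Ctsg, Nkg7 and Ms4a3) had an unadjusted p under 0.05, as did 13.1% of all genes. For Ctsg that difference was 0.54 ± 0.22, with an interval from 0.07 to 1.02 (limma adjusted p = 0.351).

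The ITD allele was also compared among Ern1(fl/fl)-VavCre libraries. In IRE1_KO_ITD against IRE1_KO in GMP, 3 of 10 members were called lower and 0 higher, where 4.50% of genes were called lower and 8.47% higher: Prtn3 (-0.69 ± 0.11, limma adjusted p = 0.00298), Elane (-0.66 ± 0.15, limma adjusted p = 0.0165) and Cst7 (-0.35 ± 0.09, limma adjusted p = 0.0340). The median was -0.42 over the members and 0.08 over all genes. Of all genes called, 65.3% were higher as scaled by the authors and 51.5% with median-ratio size factors, under which 3 members were called. For Elane this direction turned after quantile normalization, to 0.45 (limma adjusted p = 0.389). By rank, which sets the value under that scaling, Elane stood at 4 to 5 in IRE1_KO GMP and 3 to 4 in IRE1_KO_ITD GMP. Nkg7, at 1218, 758.8 and 974 FPKM in IRE1_KO and 698.6, 605 and 647.5 in IRE1_KO_ITD, did not overlap but did not pass (-0.57 ± 0.18, limma adjusted p = 0.0566). Ctsg, lower than WT in both groups, differed by -0.08 ± 0.15 (interval -0.42 to 0.25, limma adjusted p = 0.772). In all, 6 of 10 members had IRE1_KO_ITD GMP ranges wholly below IRE1_KO, where 10.5% of the genes did. The count of 3 fell to 1 without the filter on low values and without IRE1_KO GMP replicate 1 or IRE1_KO_ITD GMP replicate 2, which left Prtn3. The Cst7 call was lost in 10 of 14 alternatives, and that of Prtn3 after quantile normalization (-0.51, limma adjusted p = 0.198). The summed FPKM of the late neutrophil genes was 19056 to 89360 in IRE1_KO GMP and 1893 to 16291 in IRE1_KO_ITD GMP, with 6 of 23 called lower. Of 13 erythroid genes 12 were called lower, of 10 B cell genes 10, and of 11 basophil, mast cell and eosinophil genes 5, while 3 of 17 monocyte and dendritic cell genes were called higher and 0 lower. The part of these cells in the members' differences was not tested.

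The order of the 4 GMP groups therefore differed between members. For Elane, Prtn3, Prss57 and Cst7, WT was highest and IRE1_KO next, each apart from the next group, and the 2 ITD groups were lowest and overlapped; for Prss57, IRE1_KO (63.27 to 87.57 FPKM) also overlapped IRE1_KO_ITD (33.27 to 66.36 FPKM). For Ctsg, WT was highest and the other 3 groups overlapped. For Mpo, each group overlapped the next, from IRE1_KO at 9925 ± 345 FPKM to IRE1_KO_ITD at 8533 ± 332, but IRE1_KO_ITD (8223 to 8884) lay wholly below WT and IRE1_KO. IRE1_KO_ITD GMP ranges were below WT for 10 of 10 members, where 12.7% of genes were; that contrast changes both alleles and was not fitted. For Ms4a3 neighbours also overlapped, and IRE1_KO_ITD stood between IRE1_KO and ITD.

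In LSK, the Ern1 genotype gave few calls among the members. In IRE1_KO against WT in LSK, 1 of 10 members was called higher and 0 lower, where 21.0% of genes were called higher and 2.72% lower. It was Serpinb1a, at 142.2, 117.2 and 138.3 FPKM in WT and 169.1, 162.4 and 158.9 in IRE1_KO. The groups did not overlap, as for 29.7% of genes in this direction, and the difference was 0.30 ± 0.08 (limma adjusted p = 0.0229). Among all genes called, 88.5% were higher as scaled by the authors and 54.7% after quantile normalization, and with that scaling the Serpinb1a difference was 0.20 (limma adjusted p = 0.0900). It was also lost without WT LSK replicate 2 (0.22, limma adjusted p = 0.0951) and without IRE1_KO LSK replicate 1 (0.28, limma adjusted p = 0.0601) or replicate 2 (0.31, limma adjusted p = 0.0552). Of 9 granulocyte transcription factors 7 were called higher in the same comparison, among them Cbfb (1.67 ± 0.14, limma adjusted p = 1.76e-05), Cebpd (1.94 ± 0.29, limma adjusted p = 0.000493) and Gfi1 (1.67 ± 0.25, limma adjusted p = 0.000517). The 1ng tag and the genotype cannot be told apart in these libraries.

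In IRE1_KO_ITD against ITD in LSK, 1 of 10 members was called lower and 0 higher, where 6.96% of genes were called lower and 13.3% higher. Cst7 was at 88.45, 85.91 and 126 FPKM in IRE1_KO_ITD LSK, below all ITD libraries (-0.82 ± 0.22, limma adjusted p = 0.0244). Ctsg and Serpinb1a also lay wholly below ITD without passing, 3 of 10 members in all, where 16.4% of genes did. Mpo was at 564.4, 484.6 and 1013 FPKM in IRE1_KO_ITD and 778.1, 1549 and 1788 in ITD (-0.99 ± 0.38, interval -1.82 to -0.15, limma adjusted p = 0.0922). The summed late neutrophil FPKM was 182 to 486 in IRE1_KO_ITD LSK against 589 to 2590 in ITD LSK, with 9 of 21 called lower. Of 16 monocyte and dendritic cell genes 12 were called lower and 1 higher, with a median of -1.74 and a summed FPKM of 259 to 450 against 750 to 3376. The part of these cells in the members' differences was not tested. The Cst7 call was lost in 7 of 14 alternatives: after quantile normalization, without the filter on low values, with sex as a covariate, without ITD LSK replicate 2 or 3, and without IRE1_KO_ITD LSK replicate 1 or 2. Without ITD LSK replicate 1, 2 members were called. Of all genes called, 65.6% were higher as scaled by the authors and 86.1% with totals rescaled without short RNA loci.

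In IRE1_KO_ITD against IRE1_KO in LSK, 1 of 10 members was called higher and 1 lower, where 11.7% of genes were called higher and 19.6% lower. Prss57 was at 20.81, 19.3 and 19.12 FPKM in IRE1_KO and 31.58, 25.96 and 25.58 in IRE1_KO_ITD (0.46 ± 0.13, limma adjusted p = 0.0204). Serpinb1a was at 133.4, 140 and 140.2 FPKM in IRE1_KO_ITD, below IRE1_KO (-0.24 ± 0.08, limma adjusted p = 0.0485). Elane, at 117.2, 143.5 and 345.5 FPKM against 1003, 533.5 and 385.6 in IRE1_KO, did not overlap but did not pass (-1.71 ± 0.62, limma adjusted p = 0.0592). In all, 2 members were higher and 3 lower without overlap, where 19.5% and 26.8% of genes were. The Serpinb1a call was lost in all 14 alternatives and the Prss57 call in 3, without IRE1_KO LSK replicate 2 or 3 or without IRE1_KO_ITD LSK replicate 1. Among all genes called, 37.4% were higher as scaled by the authors and 59.8% with totals rescaled without short RNA loci. In the same comparison 20 of 21 late neutrophil genes were called lower and 1 higher (median -3.24), 12 of 13 erythroid genes lower and 1 higher, 11 of 11 B cell genes lower and 7 of 9 granulocyte transcription factors lower, and their part was not tested. The effect of the Ern1 genotype differed between ITD and WT in LSK for 1 of 10 members, Serpinb1a (-0.47 ± 0.12, limma adjusted p = 0.0408), where 5.58% of genes were called in that direction and 1.36% in the other. That call was lost in 15 of 19 alternatives, among them each other scaling, under which the share called in the other direction went from 19.6% to as much as 54.6%. Of the single libraries left out, only those of WT LSK replicate 1, ITD LSK replicate 1 and IRE1_KO LSK replicate 3 left the call in place. Both this test and IRE1_KO_ITD against IRE1_KO rest on the IRE1_KO LSK libraries, where the 1ng tag and the genotype cannot be told apart.

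Over the 12 GMP libraries, the members varied together to different degrees. The correlation of a member's log2 level with the mean of the other 9 was highest for Nkg7 (r = 0.972) and Elane (r = 0.966) and lowest for Mpo (r = 0.612) and Ctsg (r = 0.735). Of 7881 genes compared, with a mean of 5 FPKM or more, the 5 most like the mean of the members were Atp6ap2 (r = 0.972), Rgcc (r = 0.966), Dennd2d (r = 0.961), Ndufaf3 (r = 0.959) and Acp5 (r = 0.953). Atp6ap2, an accessory protein of the vacuolar proton pump, was at 190 ± 12.1 FPKM in WT GMP and 120 ± 12.9 in ITD GMP. Rgcc, a regulator of the cell cycle, was at 309 ± 36 and 165 ± 8.68 FPKM. These correlations describe 12 libraries that share 4 genotypes and their scaling, and the genes were chosen for their likeness.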

How the data were processed

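RNA was sequenced from sorted LSK and GMP cells of 4 genotypes, 24 libraries in 8 groups of 3, grouped by their labels. The submitters' processing notes name STAR, Cufflinks and mm10, with no versions, strand setting or read totals. The authors deposited FPKM for each gene symbol, and no count of reads. Library kits are named differently in the protocol (SMART-Seq v4, Nextera XT) and the design text (TruSeq Stranded), and this was not settled. Relative depth came from genes under 0.3 FPKM, set against WT LSK replicate 1. Once a depth factor was applied, 39.24% to 48.3% of them stood in ratios of whole numbers up to 6, within 0.005. The median over other factors was 2.54% to 3.41%. That factor is the relative depth given. Only factors under a doubling were searched, and a doubling fits as well.

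The moderated test of limma 3.58.1 (R 4.3.3, mean-variance trend) was run on log2(FPKM + 1), with 12 libraries per population, and 24 for comparisons across populations. A gene was tested where 3 or more of the fitted libraries reached 1 FPKM. Benjamini-Hochberg adjustment was within a comparison, with a threshold of 0.05. The fit was tested on simulated data. Single ratios were compared by exact permutation. Tables and figures used Python 3.11.15, numpy 2.4.6, pandas 2.3.3 and matplotlib 3.10.9. Positions are from GENCODE vM21 and sequences from RefSeq (GRCm38.p6), both on the build the authors used.

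The members and gene lists were chosen with earlier results of these data known. All members are named; of each other list, counts called and up to 3 called genes with the smallest p, of which some are not reported here. Like genes are the 5 with the highest correlation with the members' mean over GMP libraries. Of the listed symbols, Ly6g and Hbb-bt were not matched. Further lists tested but given in part were 26 relatives of the proteases and inhibitors (ITD against WT, GMP: 2 higher and 4 lower of 18 tested; LSK: 2 higher and 4 lower of 15) and 12 stem cell genes (GMP: 0 of 4 called by limma). Alternatives were a pseudocount of 0.1, no filter, 3 other scalings, the replicate block, only the groups compared, sex as a covariate, and leaving out each library.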

Additional observations from a re-analysis of the deposited data

Results flagged for a closer look

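The ITD effect differed between the populations by the test of that difference (GMP effect minus LSK effect, limma) for Ctsg (-1.97), Cst7 (-1.73), Prtn3 (-1.51), Prss57 (-1.51), Nkg7 (-1.51), Hk3 (-1.18) and Serpinb1a (-0.94). All 7 were lower in the mean of ITD GMP and higher in the mean of ITD LSK. Ctsg, Prss57, Cst7, Nkg7 and Hk3 were called in each of the 19 alternatives run for this difference. The Ern1 effect differed between ITD and WT in LSK for Serpinb1a (-0.47), which was higher in IRE1_KO than in WT and lower in IRE1_KO_ITD than in ITD. That call was lost in 15 of the 19 alternatives run. It rests on the IRE1_KO LSK libraries, in which the header tag and the genotype cannot be told apart.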

How the results depend on the processing

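GMP against LSK in WT kept 10 members called under every alternative run, the difference of the ITD effect 5 to 9, and the Ern1 comparisons in GMP 0. For ITD against WT in GMP the count of 8 became 5 without the filter, 5 after quantile normalization and 4 with sex as a covariate, and 4 to 8 when 1 library was left out. For IRE1_KO_ITD against IRE1_KO in GMP the count of 3 became 1 without the filter, and 1 to 4 with 1 library left out. Elane there turned to 0.45 after quantile normalization, which sets values by rank within a library. For ITD against WT in LSK the count of 4 became 2 after quantile normalization, 2 with median-ratio size factors, 2 with only the groups compared and 1 with sex as a covariate, and 1 to 4 with 1 library left out. In IRE1_KO against WT in LSK the count of 1 became 0 with each of the 3 other scalings, with only the groups compared and with sex as a covariate, and 0 to 3 with 1 library left out. In IRE1_KO_ITD against ITD in LSK the count of 1 became 0 without the filter, after quantile normalization and with sex as a covariate, and 2 with only the groups compared (0 to 2 with 1 library left out). In IRE1_KO_ITD against IRE1_KO in LSK the count of 2 became 1 with a pseudocount of 0.1, without the filter, with median-ratio size factors, with the replicate block and with sex as a covariate (0 to 2 with 1 library left out). For the difference of the Ern1 effect in LSK the count of 1 became 0 without the filter, with each other scaling, with the replicate block and with sex as a covariate (0 to 3 with 1 library left out). The cause of these changes was not tested. The median of all genes moved from -0.11 to -0.39 in GMP against LSK in WT when totals were rescaled without short RNA loci, from 0.14 to -0.08 in IRE1_KO against WT in LSK after quantile normalization, and from 0.07 to -0.03 in ITD against WT in GMP after it. Same-numbered libraries of different groups correlated at -0.338 to 0.236 after removal of group means. In 1 of 28 pairs of groups, ITD GMP with ITD LSK, all 3 correlations were over 0.1 (0.198, 0.105 and 0.147). For GMP with LSK they were 0.135, 0.05 and 0.051 in WT, 0.236, 0.044 and 0.085 in IRE1_KO, and -0.063, -0.1 and 0.022 in IRE1_KO_ITD. The numbers were not used as pairing. A link between same-numbered GMP and LSK libraries within a genotype was not fitted, as the replicate block shares each number over all genotypes. With that block the count was 7 for ITD against WT in GMP, 4 in LSK and 7 for the difference of effects. It was 2 for IRE1_KO_ITD against IRE1_KO in GMP, where Cst7 lost its call (limma adjusted p = 0.0579). Depth is known only relative to 1 library, so no counting interval can be given.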
